A study of Mus musculus with 12 samples.

Results

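Cholesterol handling was followed through 31 genes in 3T3-L1 pre-adipocytes, a mouse embryonic fibroblast line, that had been cultured with RAW264.7 macrophages. The genes were taken by name, with no threshold on their values, as enzymes of cholesterol synthesis, controllers of that pathway, carriers of sterol inside the cell, and genes of efflux and receptor turnover. All 31 were measured, among 13836 genes tested, and they comprised 18 synthesis enzymes, 5 genes of SREBP control, 3 genes of intracellular sterol transport and 5 genes of the LXR, efflux and receptor turnover group. Each of 12 conditions was measured on 1 array with 2 dyes, and every array set Cy5-labelled RNA of 3T3-L1 cells co-cultured with RAW264.7 cells against Cy3-labelled RNA of 3T3-L1 cells grown alone under the same treatment. The treatments were serotonin (S), cortisol (C), both hormones together (CS) and no treatment (NT), and cells were taken after 6, 24 and 48 h. Each hormone was used at 100 µM, and the macrophages sat in an insert above the 3T3-L1 layer, so that the layers shared medium. The co-culture ratio used throughout is the log2 of the Cy5 signal over the Cy3 signal after loess normalisation, so that a positive value means a higher signal in co-cultured cells.

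Cholesterol is assembled from acetyl-CoA by way of mevalonate, isoprenoids, squalene, lanosterol and a series of later sterols. When sterol is scarce in the endoplasmic reticulum, the escort protein SCAP carries the SREBP factors to the Golgi, where they are cut and released to switch on the synthesis enzymes. When sterol is plentiful, INSIG proteins hold SCAP back, and oxysterols activate the LXR receptors, which switch on the efflux pumps. Pre-adipocytes carry both arms of this system, and fat tissue is a large store of unesterified cholesterol.

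The promoters of 4 synthesis enzymes called lower at 48 h are shown beside that of the efflux pump Abca1, since synthesis genes and efflux genes answer to different factors. Each line gives the 250 bases before the RefSeq transcription start on the GRCm38.p6 build, 5′ to 3′ on the gene's own strand. Capitals mark CCAAT (or ATTGG on the other strand), TCACNCCAC and its looser form TCACNNCAC, which resemble the sterol element bound by SREBP, and the E-box CACGTG. Hmgcs1 lies at chr13:119690101-119690350 on the plus strand, Cyp51 at chr5:4104698-4104947 on the minus strand, Msmo1 at chr8:64733579-64733828 on the minus strand, Nsdhl at chrX:72918271-72918520 on the plus strand and Abca1 at chr4:53159896-53160145 on the minus strand.
Hmgcs1: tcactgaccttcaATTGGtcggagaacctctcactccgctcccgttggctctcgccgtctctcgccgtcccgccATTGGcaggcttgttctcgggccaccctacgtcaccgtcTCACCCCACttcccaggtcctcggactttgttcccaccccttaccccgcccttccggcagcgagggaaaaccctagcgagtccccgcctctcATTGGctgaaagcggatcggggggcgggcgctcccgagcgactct
Cyp51: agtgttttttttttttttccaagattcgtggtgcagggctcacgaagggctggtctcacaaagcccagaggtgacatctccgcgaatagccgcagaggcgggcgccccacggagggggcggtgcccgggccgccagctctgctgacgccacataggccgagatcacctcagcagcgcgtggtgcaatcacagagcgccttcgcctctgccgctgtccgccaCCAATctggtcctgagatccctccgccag
Msmo1: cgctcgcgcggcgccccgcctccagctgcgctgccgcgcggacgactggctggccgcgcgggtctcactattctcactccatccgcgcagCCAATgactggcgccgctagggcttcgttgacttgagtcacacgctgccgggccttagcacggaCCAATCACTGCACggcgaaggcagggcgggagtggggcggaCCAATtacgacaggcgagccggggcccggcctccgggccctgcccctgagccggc
Nsdhl: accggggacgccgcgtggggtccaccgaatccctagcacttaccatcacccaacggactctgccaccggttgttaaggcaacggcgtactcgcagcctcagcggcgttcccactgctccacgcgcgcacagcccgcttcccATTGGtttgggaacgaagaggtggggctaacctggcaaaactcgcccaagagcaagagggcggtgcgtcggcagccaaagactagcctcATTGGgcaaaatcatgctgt
Abca1: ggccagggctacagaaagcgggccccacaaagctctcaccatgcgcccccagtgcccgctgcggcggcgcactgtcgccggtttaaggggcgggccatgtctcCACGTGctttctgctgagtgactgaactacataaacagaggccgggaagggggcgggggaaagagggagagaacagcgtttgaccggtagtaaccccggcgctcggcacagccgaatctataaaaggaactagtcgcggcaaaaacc

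Of the 31 genes, 25 matched a RefSeq promoter. CCAAT occurred, on either strand, in 20 of the 25 and in 14 of the 15 synthesis enzymes among them, against 37.5% of all 27025 genes with a promoter. The Hmgcs1 promoter held 3 copies of ATTGG and was the only one of the 25 with TCACNCCAC, found 137 to 129 bases before the start, against 1.22% of all genes. The looser TCACNNCAC, which contains the stricter form, was found in Hmgcs1, Msmo1, Hsd17b7 and Dhcr7, against 3.63% of all genes. In Msmo1 it shared a base with 1 of the 3 CCAAT copies. The E-box was present in 6 promoters (Hsd17b7, Sc5d, Dhcr7, Insig1, Scap and Abca1), against 6.86% of all genes. These matches describe letters and not bound sites.

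Several features of the arrays bear on every value below. No condition was repeated, so the 4 treatments of a time served as its replicates (n = 4), and since no source names separate cultures, the p-values measure only the spread between arrays. All arrays had the same dye orientation, so a probe's dye bias and co-culture cannot be told apart in a ratio at a single time, although a constant bias cancels in a difference between times. Each time also had a slide of its own, and slide and time cannot be told apart. Between 19912 and 22769 probes per array stood well above background in co-cultured cells and between 18395 and 21334 in cells alone. In these bulk samples fewer cells of a type and less RNA per cell cannot be told apart.

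The cortisol-responsive gene Zbtb16 was used to check the labels, and 3 arrays went against them in the RNA of cells alone. Its log2 signal in the cells-alone channel was 10.66 in the library labelled S at 6 h, against 11.26 in C, 11.30 in CS and 8.49 in NT. At 24 h it was 10.56 in the library labelled S and 9.11 in that labelled CS, against 11.35 in C and 8.71 in NT. The co-cultured channel followed the labels on all arrays, and the main results that rest on those 3 arrays are given with and without them. The sample type was checked against marker genes. All 15 fibroblast markers were measured, with Lum above background on 3 arrays in each culture and the others on 12. Their median co-culture ratio over the arrays ran from -0.10 to 0.05 at 6 h, from -0.31 to 0.01 at 24 h and from -0.42 to -0.19 at 48 h. At 48 h 9 of the 15 were below 0 in NT and in C, and 11 in S and in CS. Of 10 mature adipocyte markers 4 were measured, with Fabp4 and Pparg well above background on 12 of 12 arrays in both cultures and Cebpa and Cidec on 6 and 4 arrays in co-cultured cells and 4 each in cells alone. The other 6 (Adipoq, Lep, Retn, Plin1, Lipe and Cfd) were above background on at most 2 arrays in either culture, Adipoq and Lep on 0. Of 21 macrophage markers 15 were measured, and their summed intensity ran from 26510 to 29259 in co-cultured cells, against 18781 to 23147 in cells alone, at 6 h, from 24291 to 28117 in co-cultured cells, against 20690 to 31105 in cells alone, at 24 h, and from 25629 to 31725 in co-cultured cells, against 27297 to 32021 in cells alone, at 48 h. The markers Ptprc, Laptm5, Spi1 and Msr1 were above background on at most 1 array in either culture. By contrast, Aif1, Arhgdib, Cd14, Cd53, Clec4d, Csf1r, Itgam, Itgb2 and Mpeg1 were above background on 12 of 12 arrays in both cultures. Tyrobp was so on 6 arrays in co-cultured cells and 0 in cells alone. Of the 15 measured macrophage markers, 7 were called higher and 0 lower at 6 h, against 4.4% and 5.27% of all genes, 2 and 0 at 24 h, against 4.69% and 3.7%, and 6 and 2 at 48 h, against 14.6% and 16.8%. The highest at 48 h were Clec4d (1.84), Ctss (1.53) and Csf1r (1.11), and the 2 lower were Cd53 (-0.68) and Arhgdib (-0.62). The part of the macrophage and fibroblast markers in the results was not tested.

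At 48 h co-cultured pre-adipocytes carried less mRNA for much of the cholesterol synthesis pathway than pre-adipocytes alone. A gene was called where limma's adjusted p was under 0.05 and the change was at least 1.5-fold. On that rule 9 of 18 enzymes were lower and 0 were higher at 48 h, against 16.8% of all genes called lower and 14.6% called higher. The enzymes' median ratio was -0.61, against -0.01 over all genes, and 15 of 18 lay below 0. At 6 h 3 of the 31 genes were called, of which 1 was an enzyme and lower, against 5.27% of all genes called lower and 4.4% called higher. At 24 h 2 were called, of which 1 was an enzyme and lower, against 3.7% and 4.69% of all genes. Without the C array at 24 h 4 were called, with Idi1 and Mvk added, and among all genes 669 were then higher and 557 lower. The enzymes' median was -0.11 at 6 h and -0.26 at 24 h, but these medians turned positive, to 0.38 and 0.30, when arrays were centred on their medians without loess, which also moved the median of all genes to 0.23 and 0.39. Under that centring 12 of the 31 genes were called higher at 6 h and 7 at 24 h, and 0 lower. Among the 13836 genes, it called 3487 higher and 231 lower at 6 h, and 4624 and 111 at 24 h. The 6 h median also turned positive, to 0.10, without the NT array at that time. On the NT arrays the enzymes' median was -0.54 at 6 h, -0.41 at 24 h and -0.63 at 48 h. There 18 of 18 enzymes were below 0 at 6 h, and 15 at 24 h and at 48 h. The 6 h medians of the other arrays were 0.12 in S, 0.05 in C and 0.11 in CS. The untreated cells were thus already low at 6 h, on 1 array. At 48 h centring gave -0.86, with all genes at -0.16.

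**Figure D1:**
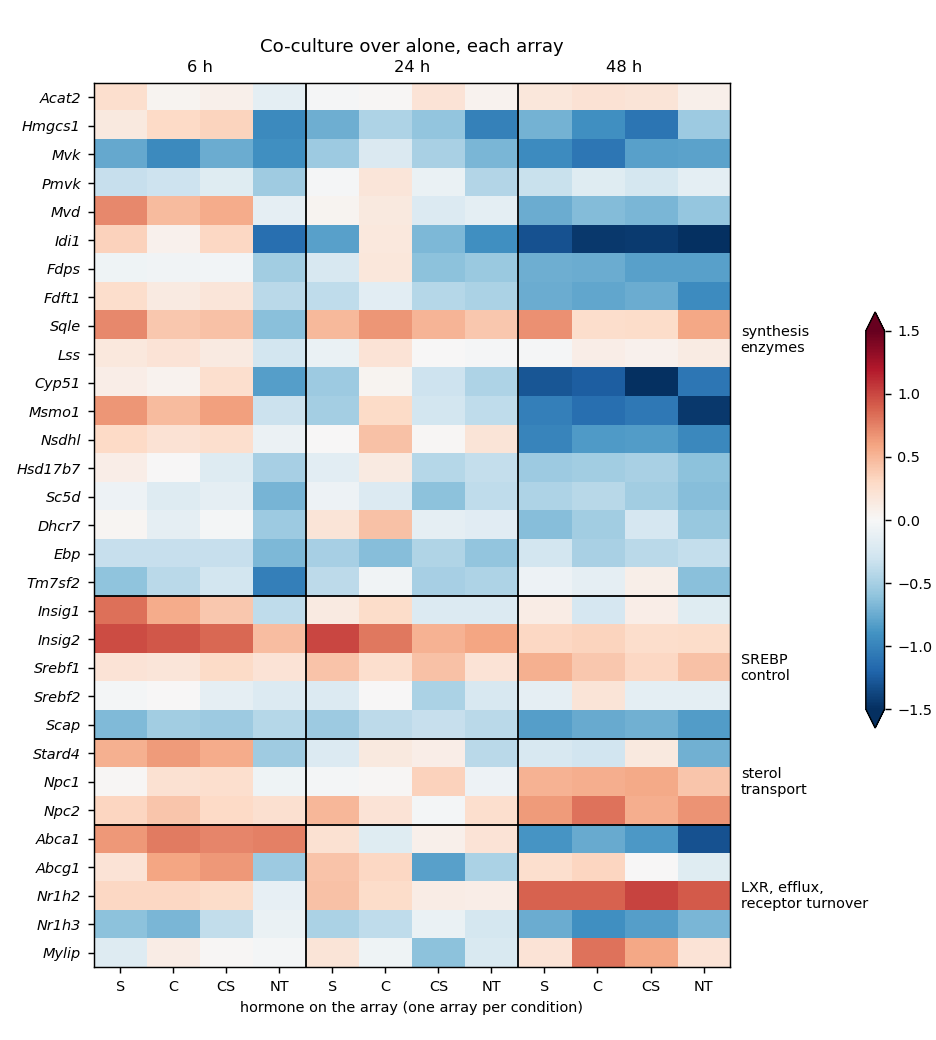
Co-culture log2 ratio of each of the 31 genes (rows, grouped by role) on each of the 12 arrays (columns, by time and treatment), with higher signal in co-cultured cells in red and lower in blue, colours ending at ±1.5. The enzyme rows at 48 h are mostly blue, Idi1 reaching -2.08 in NT, while the Nr1h2 row lies between 0.89 and 1.01.

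The enzymes that open the pathway from acetyl-CoA to mevalonate and its phosphates gave a mixed picture at the earlier times. Acat2, which joins acetyl-CoA units, had ratios between -0.15 and 0.25 on all arrays and was dim, above background on 8 of 12 arrays in co-cultured cells and 2 of 12 in cells alone. Hmgcs1, which makes HMG-CoA and carries the TCACNCCAC motif printed above, had ratios of 0.15 (S), 0.30 (C), 0.33 (CS) and -0.95 (NT) at 6 h, -0.73 (S), -0.46 (C), -0.59 (CS) and -1.01 (NT) at 24 h and -0.71 (S), -0.92 (C), -1.09 (CS) and -0.55 (NT) at 48 h. Its co-cultured signal was therefore lower on all 8 arrays of the later times, and at 6 h the NT array alone was low. The fitted ratio was -0.04 ± 0.16 at 6 h (SE, n = 4; adjusted p = 0.835), -0.70 ± 0.16 at 24 h (adjusted p = 0.00452) and -0.82 ± 0.16 at 48 h (adjusted p = 0.000761). The 24 h call was lost without the 3 arrays whose labels are in doubt (-0.65, adjusted p = 0.163). Under median centring without loess the 24 h ratio was 0.06.

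Mvk, the kinase that phosphorylates mevalonate, was lower in co-cultured cells at 6 h as well as at 48 h. Its ratios were -0.77 (S), -0.96 (C), -0.75 (CS) and -0.92 (NT) at 6 h, -0.55 (S), -0.22 (C), -0.49 (CS) and -0.69 (NT) at 24 h and -0.94 (S), -1.08 (C), -0.82 (CS) and -0.80 (NT) at 48 h, below 0 on every array. The fit gave -0.85 ± 0.08 at 6 h (adjusted p = 1.28e-05), which was 1.8-fold lower, -0.49 ± 0.08 at 24 h (adjusted p = 0.000394), short of the fold threshold, and -0.91 ± 0.08 at 48 h (adjusted p = 8.96e-07). A second Mvk probe differed, averaging -0.19, -0.04 and -0.73 at the 3 times, so the 6 h call rests on the first probe, and under median centring without loess its 6 h ratio was -0.07. Pmvk, the next kinase, had fits of -0.34, -0.09 and -0.23 at the same times and was not called.

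Mvd, which decarboxylates the pathway's diphosphate to isopentenyl diphosphate, had ratios of 0.72 (S), 0.48 (C), 0.56 (CS) and -0.14 (NT) at 6 h, 0.04 (S), 0.15 (C), -0.21 (CS) and -0.15 (NT) at 24 h and -0.74 (S), -0.65 (C), -0.69 (CS) and -0.58 (NT) at 48 h. The 48 h values lay below every earlier value, and the fit gave -0.67 ± 0.10 (adjusted p = 0.000139). Idi1, the isomerase that supplies dimethylallyl diphosphate, had the lowest fitted ratio of the 31 genes. Its ratios were 0.34 (S), 0.06 (C), 0.31 (CS) and -1.13 (NT) at 6 h, -0.82 (S), 0.16 (C), -0.67 (CS) and -0.92 (NT) at 24 h and -1.31 (S), -1.45 (C), -1.43 (CS) and -2.08 (NT) at 48 h. The NT array was the lowest at each time, and all 4 arrays were below -1 at 48 h. The fitted 48 h ratio was -1.57 ± 0.15 (adjusted p = 2.61e-06), a 2.96-fold lower signal in co-cultured cells.

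Farnesyl diphosphate and squalene synthesis followed the same course at 48 h. Fdps, farnesyl diphosphate synthase, had ratios of -0.07 (S), -0.05 (C), -0.04 (CS) and -0.52 (NT) at 6 h, -0.24 (S), 0.17 (C), -0.61 (CS) and -0.56 (NT) at 24 h and -0.73 (S), -0.75 (C), -0.81 (CS) and -0.82 (NT) at 48 h. The 4 values at 48 h lay close together, and the fit gave -0.78 ± 0.09 (adjusted p = 1.02e-05). Fdft1, squalene synthase, had ratios of 0.26 (S), 0.13 (C), 0.18 (CS) and -0.40 (NT) at 6 h, -0.38 (S), -0.16 (C), -0.43 (CS) and -0.48 (NT) at 24 h and -0.75 (S), -0.78 (C), -0.75 (CS) and -0.94 (NT) at 48 h. Its fitted 48 h ratio was -0.80 ± 0.07 (adjusted p = 1.78e-06). A second Fdft1 probe went the other way at 48 h, averaging 0.17 at 6 h, 0.16 at 24 h and 1.36 at 48 h. It was above background on 5 of 12 arrays in co-cultured cells and 0 of 12 in cells alone. Its ratios are therefore set against a signal that was not well above background. The 48 h call of Fdft1 rests on the brighter probe, which was above background on 12 of 12 arrays in both cultures.

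Squalene epoxidase and lanosterol synthase did not move with their neighbours. Sqle, whose enzyme is an oxygen-dependent control point of the pathway, had ratios of 0.72 (S), 0.41 (C), 0.44 (CS) and -0.63 (NT) at 6 h, 0.49 (S), 0.66 (C), 0.51 (CS) and 0.41 (NT) at 24 h and 0.68 (S), 0.26 (C), 0.27 (CS) and 0.58 (NT) at 48 h. It was thus above 0 on every array except NT at 6 h, with fits of 0.24 ± 0.14, 0.52 ± 0.14 (adjusted p = 0.0122) and 0.45 ± 0.14 (adjusted p = 0.0159), under 1.5-fold at each time. Median centring without loess gave 1.06, 1.44 and 0.58 and called Sqle higher at 6 h and 24 h. Lss, which closes the sterol rings, had fitted ratios of 0.06, 0.02 and 0.07 at 6, 24 and 48 h.

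Among the enzymes that turn lanosterol into cholesterol, Cyp51 and Msmo1, of the demethylation steps, had the lowest fitted ratios at 48 h. Cyp51, the lanosterol demethylase, had ratios of 0.10 (S), 0.05 (C), 0.25 (CS) and -0.83 (NT) at 6 h, -0.54 (S), 0.04 (C), -0.31 (CS) and -0.46 (NT) at 24 h and -1.28 (S), -1.24 (C), -1.5 (CS) and -1.08 (NT) at 48 h. Msmo1, the sterol methyl oxidase, had ratios of 0.66 (S), 0.47 (C), 0.61 (CS) and -0.32 (NT) at 6 h, -0.51 (S), 0.29 (C), -0.28 (CS) and -0.38 (NT) at 24 h and -1.03 (S), -1.13 (C), -1.07 (CS) and -1.45 (NT) at 48 h. For both genes all 4 arrays at 48 h lay below every array at 6 h and 24 h. The fitted 48 h ratios were -1.27 ± 0.14 for Cyp51 (adjusted p = 8.98e-06) and -1.17 ± 0.11 for Msmo1 (adjusted p = 3.33e-06), which were 2.42-fold and 2.25-fold lower. Nsdhl, the sterol dehydrogenase that acts after Msmo1, had ratios of 0.30 (S), 0.22 (C), 0.25 (CS) and -0.09 (NT) at 6 h, 0.01 (S), 0.44 (C), 0.02 (CS) and 0.19 (NT) at 24 h and -0.99 (S), -0.85 (C), -0.84 (CS) and -0.97 (NT) at 48 h. On this probe it was above 0 on 7 of the 8 earlier arrays, and its 48 h fit was -0.91 ± 0.08 (adjusted p = 1.1e-06). Its second probe averaged -0.15, -0.04 and -0.74 at the 3 times.

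The remaining late enzymes were not called at 48 h. The fits were -0.55 ± 0.08 for Hsd17b7 (adjusted p = 6.98e-05), -0.51 ± 0.08 for Sc5d (adjusted p = 0.00012), -0.49 ± 0.10 for Dhcr7 (adjusted p = 0.000796) and -0.38 ± 0.06 for Ebp (adjusted p = 8.07e-05). A second Hsd17b7 probe, above background on all arrays, averaged -0.30, -0.22 and -0.88 at the 3 times, and median centring without loess called Hsd17b7 (-0.95) and Dhcr7 (-0.81) at 48 h. Hsd17b7 is a keto-sterol reductase, Ebp shifts a double bond of the sterol ring, Sc5d adds a double bond and Dhcr7 removes one. Tm7sf2, a sterol reductase, had fits of -0.58, -0.35 and -0.19 at 6, 24 and 48 h and was not called at any of them. With the fold threshold removed, 26 of the 31 genes passed at 48 h (8 higher and 18 lower), against 14 with it. Of the 13830 genes tested, 4868 then passed as higher and 5222 as lower.

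**Figure D2:**
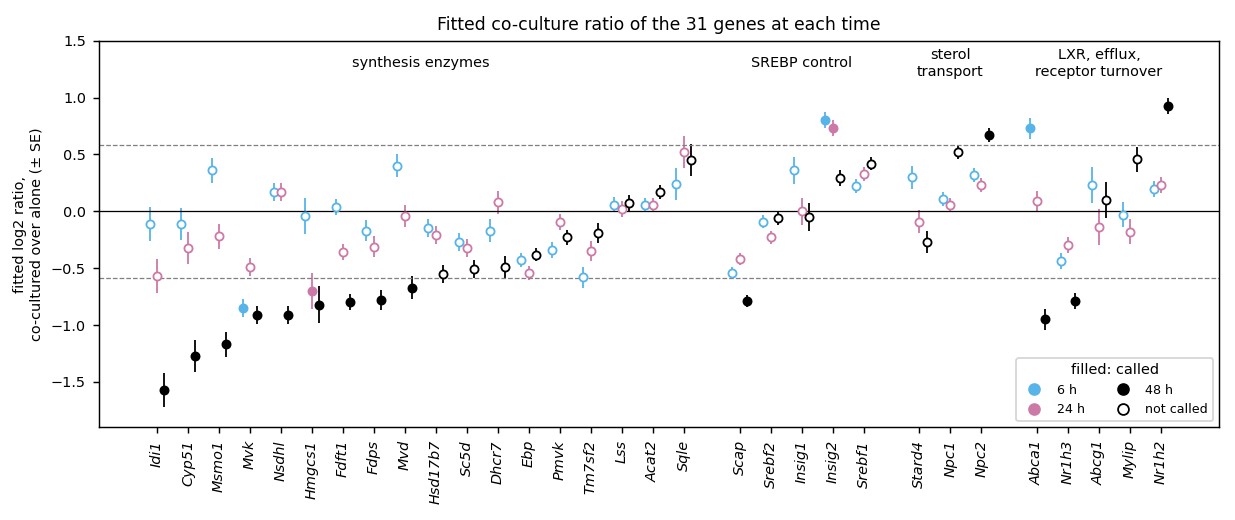
Fitted co-culture log2 ratio of each gene at 6, 24 and 48 h (points, with SE bars, n = 4 arrays per time), filled where the gene was called and with dashed lines at 1.5-fold. At 48 h, 9 enzymes lie as filled points below the lower line, from -0.67 for Mvd to -1.57 for Idi1, and Nr1h2 and Npc2 lie above the upper line.

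The genes that control SREBP did not move as a group. Insig2, which retains SCAP in the endoplasmic reticulum, was higher in co-cultured cells early. Its ratios were 0.98 (S), 0.93 (C), 0.86 (CS) and 0.46 (NT) at 6 h, 1.0 (S), 0.79 (C), 0.52 (CS) and 0.59 (NT) at 24 h and 0.31 (S), 0.33 (C), 0.26 (CS) and 0.27 (NT) at 48 h, all above 0. The fit was 0.80 ± 0.07 at 6 h (adjusted p = 9.96e-06), 0.73 ± 0.07 at 24 h (adjusted p = 1.63e-05) and 0.29 ± 0.07 at 48 h (adjusted p = 0.00244), of which the first 2 passed the fold threshold, and a second Insig2 probe averaged 0.36, 0.37 and 0.60. The mean of the probes was 0.58 at 6 h and 0.55 at 24 h and was not called. Insig1, its sterol-repressed relative that is itself an SREBP target, had fits of 0.36 ± 0.12, 0.00 ± 0.12 and -0.05 ± 0.12 and was not called.

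Scap, the escort of SREBP, was below 0 on all arrays. Its ratios were -0.66 (S), -0.52 (C), -0.55 (CS) and -0.43 (NT) at 6 h, -0.54 (S), -0.39 (C), -0.34 (CS) and -0.41 (NT) at 24 h and -0.83 (S), -0.76 (C), -0.72 (CS) and -0.84 (NT) at 48 h. The fits were -0.54 ± 0.05 (adjusted p = 9.89e-06), -0.42 ± 0.05 (adjusted p = 4.12e-05) and -0.79 ± 0.05 (adjusted p = 6.12e-08), and the last alone passed the fold threshold. Median centring without loess gave 0.28, 0.39 and -0.88. Srebf2, which encodes the SREBP that favours cholesterol genes, had fits of -0.09, -0.23 and -0.06. Srebf1, whose products favour fatty acid genes, had fits of 0.22, 0.33 and 0.42, and neither was called.

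Of the carriers of sterol inside the cell, Npc2, the lysosomal protein that hands cholesterol to NPC1, was higher in co-cultured cells at 48 h. Its ratios were 0.32 (S), 0.42 (C), 0.30 (CS) and 0.24 (NT) at 6 h, 0.50 (S), 0.20 (C), -0.03 (CS) and 0.25 (NT) at 24 h and 0.64 (S), 0.81 (C), 0.55 (CS) and 0.67 (NT) at 48 h. The 48 h fit was 0.67 ± 0.06 (adjusted p = 2.04e-06). The 48 h values lay above all earlier ones after loess, but median centring without loess gave 1.28, 1.32 and 0.88 at 6, 24 and 48 h, with calls at all 3 times and 48 h the lowest. Npc1, its membrane partner, had a fit of 0.52 ± 0.06 at 48 h (adjusted p = 1.28e-05), short of 1.5-fold. Stard4, a soluble sterol carrier and SREBP target, had fits of 0.30 ± 0.10, -0.09 ± 0.10 and -0.27 ± 0.10 and was not called.

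The efflux side was led by Abca1, the pump that loads cholesterol onto apolipoprotein A-I, whose ratio changed sign with time. Its ratios were 0.65 (S), 0.78 (C), 0.73 (CS) and 0.75 (NT) at 6 h, 0.23 (S), -0.18 (C), 0.08 (CS) and 0.21 (NT) at 24 h and -0.89 (S), -0.76 (C), -0.86 (CS) and -1.31 (NT) at 48 h. All 4 arrays were above 0 at 6 h and all 4 were below 0 at 48 h, with 24 h between them. The fits were 0.73 ± 0.09 (adjusted p = 9.07e-05), 0.09 ± 0.09 (adjusted p = 0.459) and -0.95 ± 0.09 (adjusted p = 2.62e-06), a 1.66-fold higher signal in co-cultured cells at 6 h and a 1.94-fold lower one at 48 h. Median centring without loess gave 1.1, 0.76 and -1.25, with calls at all 3 times. Abcg1, a pump that passes cholesterol to HDL, had fits of 0.23 ± 0.16, -0.14 ± 0.16 and 0.10 ± 0.16 and was not called.

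The LXR receptors moved in opposite directions at 48 h. Nr1h2, LXR-beta, had ratios of 0.31 (S), 0.31 (C), 0.28 (CS) and -0.12 (NT) at 6 h, 0.44 (S), 0.28 (C), 0.11 (CS) and 0.10 (NT) at 24 h and 0.89 (S), 0.89 (C), 1.01 (CS) and 0.92 (NT) at 48 h. Nr1h3, LXR-alpha, had ratios of -0.61 (S), -0.68 (C), -0.37 (CS) and -0.10 (NT) at 6 h, -0.48 (S), -0.38 (C), -0.10 (CS) and -0.26 (NT) at 24 h and -0.74 (S), -0.92 (C), -0.83 (CS) and -0.68 (NT) at 48 h. The 48 h fits were 0.93 ± 0.07 for Nr1h2 (adjusted p = 2.62e-07) and -0.79 ± 0.07 for Nr1h3 (adjusted p = 1.94e-06), and a second Nr1h3 probe averaged -1.04 at 48 h. Median centring without loess gave 0.98, 1.03 and 0.89 for Nr1h2 at the 3 times, called at each. Mylip, an LXR target that marks lipoprotein receptors for breakdown, had fits of -0.03, -0.18 and 0.46 and was not called. Leaving out the 3 arrays in doubt left the calls at 6 h and 48 h unchanged for all 31 genes.

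Synthesis was then set against efflux on each array, as the median ratio of the 18 enzymes minus the median of the 5 genes of the LXR, efflux and receptor turnover group. The difference was -0.09 in S, -0.26 in C, -0.17 in CS and -0.44 in NT at 6 h, -0.43 in S, 0.21 in C, -0.27 in CS and -0.18 in NT at 24 h, and -0.88 in S, -0.90 in C, -0.62 in CS and -0.45 in NT at 48 h. It was below 0 on 11 of the 12 arrays, and on 8 of 9 without the arrays in doubt. At 48 h the synthesis medians were -0.67 in S, -0.58 in C, -0.61 in CS and -0.63 in NT, and the efflux medians were 0.21 in S, 0.32 in C, 0.01 in CS and -0.18 in NT. The difference was lower on every hormone-treated array than on NT there, and the arrays were set apart mainly by the efflux median. That median was the value of Mylip in S and of Abcg1 in C, CS and NT, and neither gene was called. The pump Abca1 was at -0.89 in S, -0.76 in C, -0.86 in CS and -1.31 in NT, below the synthesis median on each 48 h array. The difference therefore does not describe Abca1. With arrays centred on their medians the S value was 0.12 at 6 h and -0.59 at 48 h.

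**Figure D3:**
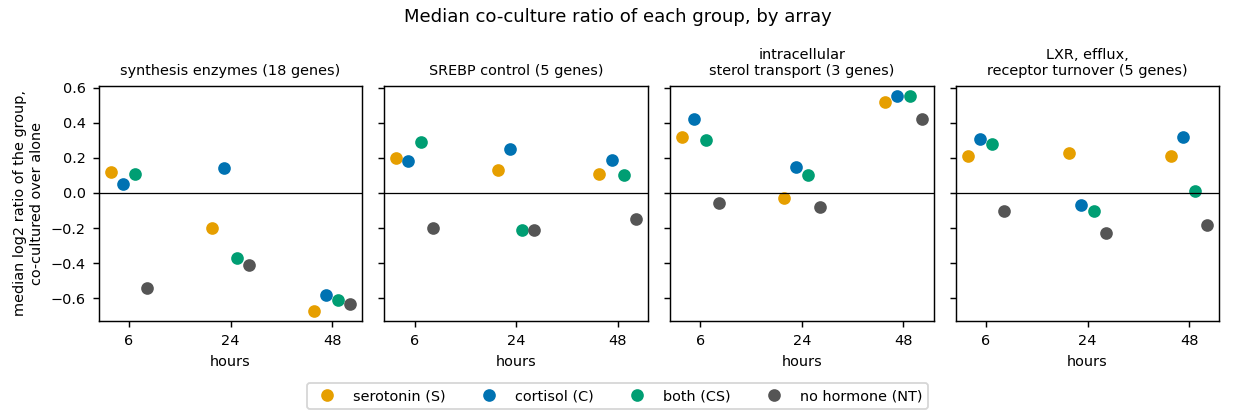
Median co-culture log2 ratio of each role's genes on each array, by time and treatment, with 1 panel for each of the 4 roles. The synthesis panel is lowest at 48 h, where the fitted median is -0.61, and the other 3 roles have fitted 48 h medians of -0.05 for SREBP control, 0.52 for sterol transport and 0.10 for the LXR and efflux group. Under median centring without loess the synthesis medians at 6 h and 24 h turn positive.

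The change of the ratio between times was tested directly, in which a constant dye bias cancels. Between 24 h and 6 h 1 gene was called, Abca1 at -0.64, against 0.73% of all genes called lower and 1.74% called higher. That call was lost without the 3 arrays in doubt (-0.71, adjusted p = 0.2), and the count was 0 without C at 6 h, CS at 6 h or C at 24 h, 2 without NT at 24 h or NT at 48 h, and 4 without NT at 6 h. Between 48 h and 24 h 6 genes were called lower and 2 higher, against 11.7% and 9.41% of all genes. The lower ones were Nsdhl (-1.08), Abca1 (-1.04), Idi1 (-1.0), Cyp51 (-0.96), Msmo1 (-0.95) and Mvd (-0.62). The higher ones were Nr1h2 (0.69) and Mylip (0.64), but both turned negative under median centring, at -0.14 and -0.20.

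Over the whole interval, 48 h against 6 h, 9 genes were called lower and 1 higher, against 12.3% and 12% of all genes. The largest differences were -1.68 for Abca1, -1.53 for Msmo1, -1.46 for Idi1, -1.17 for Cyp51, -1.08 for Nsdhl and -1.07 for Mvd. Fdft1 was at -0.85, Hmgcs1 at -0.77 and Fdps at -0.61. The Hmgcs1 call was lost without the 3 arrays in doubt (-0.75, adjusted p = 0.0715). Nr1h2 was higher by 0.73, and its difference was -0.09 under median centring. In all, 8 enzymes therefore had a lower fitted ratio at 48 h than at 6 h, where slide and time cannot be told apart. In NT, however, the ratio of Hmgcs1 was higher at 48 h (-0.55) than at 6 h (-0.95). The count of genes called was 13 without the NT array at 6 h, and the share of all genes in that setting is not given here.

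Each dye channel was next followed on its own, on the log2 scale of signal after normalisation across arrays, to see which culture moved. Cyp51 is taken first, since it fell at both steps in co-cultured cells. It had log2 signals of 10.24 (S), 10.62 (C), 10.54 (CS) and 10.24 (NT) at 6 h, 9.19 (S), 9.55 (C), 9.23 (CS) and 9.12 (NT) at 24 h and 8.38 (S), 8.41 (C), 8.45 (CS) and 8.32 (NT) at 48 h in co-cultured cells. In cells alone its signals were 10.14 (S), 10.57 (C), 10.28 (CS) and 11.07 (NT) at 6 h, 9.73 (S), 9.51 (C), 9.54 (CS) and 9.57 (NT) at 24 h and 9.66 (S), 9.65 (C), 9.96 (CS) and 9.40 (NT) at 48 h. Both cultures therefore fell by 24 h, and the co-cultured signal fell further by 48 h.

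Over all 31 genes in co-cultured cells, 24 h against 6 h gave 12 calls lower and 2 higher, against 3.81% and 5.13% of all genes. The lower ones were 9 enzymes with Insig1 (-0.95), Stard4 (-0.96) and Abcg1 (-0.59), and the enzymes ran from -0.71 for Fdft1 to -1.18 for Mvd. The higher ones were Abca1 (0.71) and Nr1h3 (0.66). At 48 h against 24 h 7 genes were called lower and 0 higher, against 14.5% and 12.1% of all genes, namely Abca1 (-1.22), Nsdhl (-1.0), Cyp51 (-0.88), Msmo1 (-0.74), Dhcr7 (-0.73), Mvd (-0.63) and Insig2 (-0.61).

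Across the whole interval in co-cultured cells, 48 h against 6 h, 15 genes were lower and 0 higher, against 14.3% of all genes in each direction. The log2 difference was -2.01 ± 0.09 for Cyp51 (adjusted p = 6.36e-07), -1.83 ± 0.12 for Msmo1 (adjusted p = 1.74e-06), -1.80 ± 0.14 for Mvd (adjusted p = 3.43e-06) and -1.80 ± 0.11 for Nsdhl (adjusted p = 1.32e-06). It was -1.30 for Dhcr7, -1.29 for Idi1, -1.14 for Fdft1, -1.05 for Hmgcs1, -1.03 for Fdps, -0.92 for Hsd17b7 and -0.69 for Sc5d. Outside the enzymes, Stard4 was at -1.11, Insig1 at -0.83, Abcg1 at -0.62 and Scap at -0.61. The SREBP targets Insig1 and Stard4 thus fell in co-cultured cells along with 11 enzymes. The enzymes Sqle (0.54) and Acat2 (0.39) lay above 0 there and were not called. In cells alone Insig1 was at -0.42 and Stard4 at -0.54 over the same interval, neither of them called. Without the 3 arrays in doubt 13, 8 and 13 genes were called over these 3 intervals, and the shares of all genes in that setting are not given here.

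The cells grown alone were followed in the same way. At 24 h against 6 h 6 enzymes were lower and Abca1 was higher, against 5.94% and 5.3% of all genes. Cyp51 was at -0.92, Dhcr7 at -0.83, Hsd17b7 at -0.80, Nsdhl at -0.80, Mvd at -0.73 and Fdps at -0.65. From 24 h onward 0 of the 31 genes were called in cells alone at 48 h against 24 h, where limma called 1.14% of all genes lower and 3.43% higher. In that comparison 2 of the 31 had an unadjusted p under 0.05, against 29.7% of all genes. At 48 h against 6 h 5 enzymes were lower, against 6.19% of all genes, namely Dhcr7 (-0.98), Cyp51 (-0.85), Tm7sf2 (-0.83), Mvd (-0.73) and Nsdhl (-0.72). Abca1 was the single gene called higher (1.17), against 7.57% of all genes. Without the 3 arrays in doubt 9 genes were called at 24 h against 6 h, 0 at 48 h against 24 h and 9 at 48 h against 6 h in cells alone. The shares of all genes in that setting are not given here.

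The channels also separate the course of Abca1. In co-cultured cells its log2 signals were 12.74 (S), 12.46 (C), 12.54 (CS) and 12.60 (NT) at 6 h, 13.28 (S), 13.26 (C), 13.29 (CS) and 13.37 (NT) at 24 h and 12.22 (S), 12.25 (C), 11.98 (CS) and 11.85 (NT) at 48 h. In cells alone they were 12.08 (S), 11.68 (C), 11.81 (CS) and 11.85 (NT) at 6 h, 13.05 (S), 13.44 (C), 13.21 (CS) and 13.16 (NT) at 24 h and 13.11 (S), 13.01 (C), 12.84 (CS) and 13.16 (NT) at 48 h. Cells alone held the 24 h level, with no overlap with 6 h, whereas in co-cultured cells the 48 h arrays lay below all arrays of both earlier times.

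The log2 signal of Idi1 in co-cultured cells was 13.73 ± 0.30, 12.97 ± 0.37 and 12.44 ± 0.42 at 6, 24 and 48 h (SD, n = 4). In cells alone it was 13.84 ± 0.56, 13.53 ± 0.19 and 14.01 ± 0.09 at the same times, and no time difference was called there. The LXR gene Nr1h2 had 14.20 ± 0.10, 13.94 ± 0.06 and 14.45 ± 0.04 in co-cultured cells, and 14.01 ± 0.28, 13.70 ± 0.21 and 13.52 ± 0.05 in cells alone. Its cultures were thus set apart at 48 h by 0.93 with a small spread in each.

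**Figure D4:**
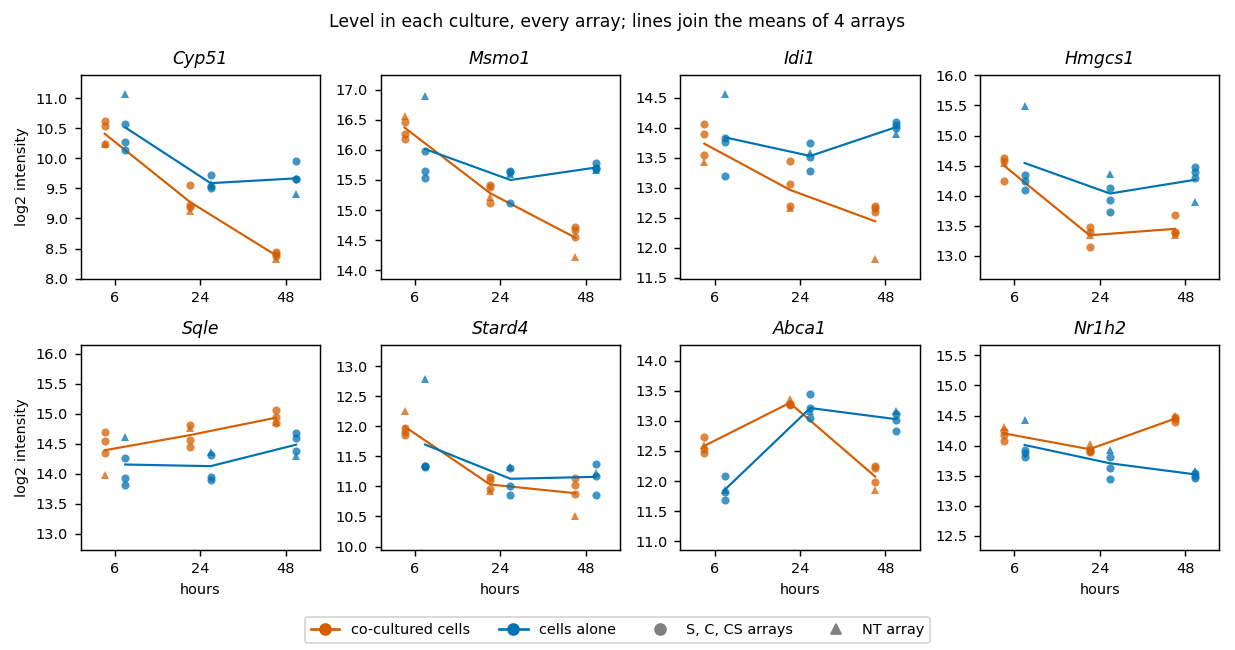
Log2 signal of 8 genes at 6, 24 and 48 h in co-cultured cells (orange) and cells alone (blue), each point 1 array and triangles the NT arrays. Cyp51 falls to between 8.32 and 8.45 in co-cultured cells at 48 h, against 9.40 to 9.96 in cells alone.

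Hormone effects were tested over the 3 times, with S, C or CS set against NT (n = 3 arrays each). On the co-culture ratio limma called 0 genes of the whole array in any of these comparisons. At an unadjusted p under 0.05 the numbers of the 31 genes were 12 in S, 14 in C and 6 in CS, against 13.1%, 9.85% and 9.25% of all genes, and the smallest adjusted p among them was 0.274 in S, 0.423 in C and 0.238 in CS. The enzymes' median difference was 0.29 in S, 0.33 in C and 0.18 in CS, with all 18 above 0 in each. Without the NT array at 6 h these medians were 0.12, 0.14 and 0.05, with 15, 16 and 12 of 18 above 0. Without the 3 arrays in doubt the medians were 0.23 in S, 0.33 in C and 0.32 in CS. S then rested on its 48 h array only, and CS on its 6 h and 48 h arrays.

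That NT array at 6 h was set apart by its cells-alone channel. The log2 signal of Hmgcs1 in cells alone was 14.10 in the library labelled S, 14.34 in C and 14.24 in CS, against 15.49 in NT. For Msmo1 it was 15.53 in S, 15.99 in C and 15.65 in CS, against 16.89 in NT, and for Stard4 11.32 in S, 11.34 in C and 11.34 in CS, against 12.79 in NT. Insig1 had 7.74 in S, 8.09 in C and 8.08 in CS, against 9.08 in NT. In cells alone 14 of 18 enzymes were lower on all 3 hormone arrays than on NT at 6 h, against 31.6% of all genes, with median differences of -0.69 in S, -0.49 in C and -0.48 in CS. Without the library labelled S, which is in doubt, 15 of 18 were lower on both C and CS than on NT, against 38.9% of all genes. In co-cultured cells 2 were lower and 6 higher on all 3, against 31.4% and 35.8% of all genes, with medians of -0.04, 0.14 and 0.09, and on C and CS alone 2 were lower and 12 higher, against 41.3% and 42.1%. With 1 array per condition no test of a single time is possible.

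**Figure D5:**
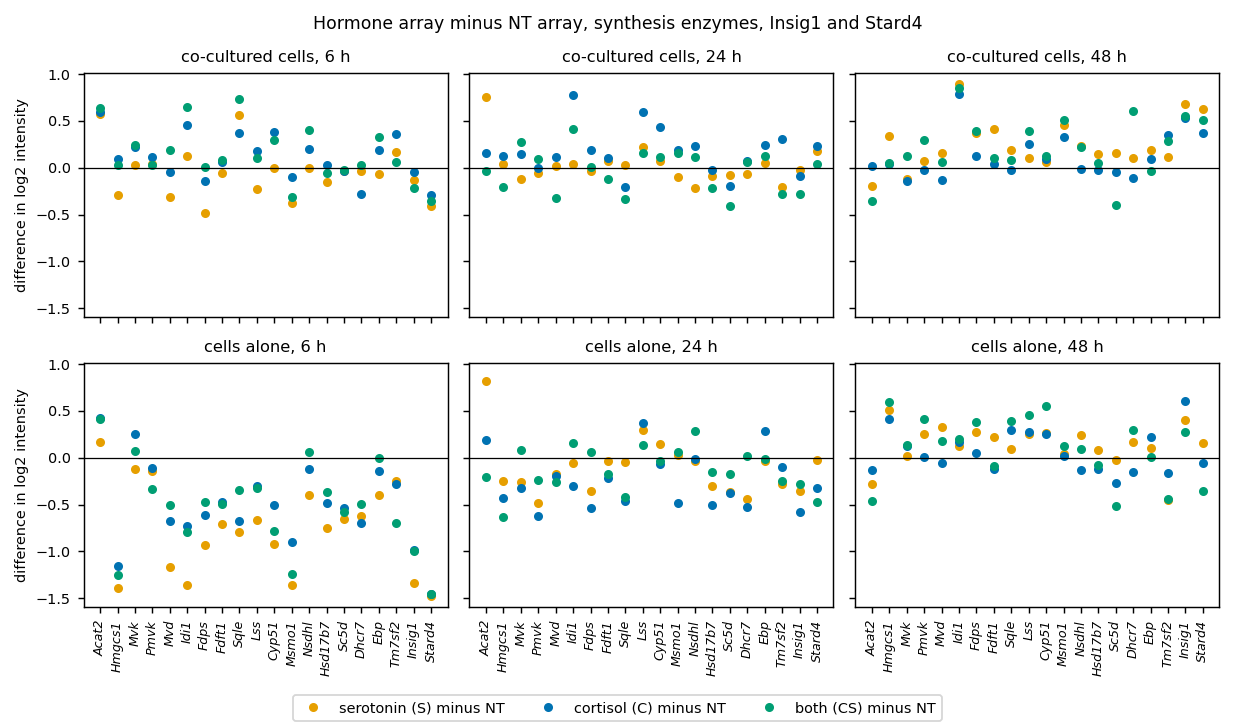
Log2 signal of each hormone array minus that of NT for the 18 enzymes, Insig1 and Stard4, at 6, 24 and 48 h, with co-cultured cells in the top row and cells alone in the bottom row. At 6 h the points of cells alone lie mostly below 0 (enzyme medians -0.69 in S, -0.49 in C and -0.48 in CS), and those of co-cultured cells lie around 0.

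Within the channels, Idi1 was the single gene of the 31 called for a hormone, at 0.64 ± 0.16 in CS over NT in co-cultured cells (adjusted p = 0.0427), against 2.79% of all genes called higher and 0.983% lower. The call held without S at 24 h, C at 24 h or S at 48 h, was lost on leaving out any of the other 9 arrays, and was lost without the 3 arrays in doubt. The difference itself was 0.49 to 0.71 over the single arrays left out (adjusted p 0.0169 to 0.12) and 0.77 ± 0.12 without the 3 arrays in doubt (adjusted p = 0.079). The Idi1 difference in C was 0.68 (adjusted p = 0.0522), where 1.13% of all genes were called higher and 0.832% lower. In cells alone limma called 0 of the 31 genes with or without those arrays, against 0.174% of all genes higher and 0.0723% lower in C and 1.22% higher and 0.311% lower in CS. With those arrays, 3 of the 31 in S, 8 in C and 3 in CS had an unadjusted p under 0.05, against 8.06%, 17.5% and 20.1% of all genes. Abcg1 in cells alone had a difference of -1.15 ± 0.33 in C (adjusted p = 0.121). Its signals there were 9.19 in the library labelled S, 7.51 in C and 7.62 in CS, against 9.08 in NT, at 6 h, 7.84 in the library labelled S, 7.47 in C and 8.41 in the library labelled CS, against 8.80 in NT, at 24 h, and 8.08 in S, 7.5 in C and 7.82 in CS, against 8.05 in NT, at 48 h. C was the lowest of the 4 at all 3 times.

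Other genes of cholesterol handling, a list of 30 of which 28 were measured, moved in both directions. At 6 h 2 were called higher and 2 lower, against 4.4% and 5.27% of all genes, at 24 h 3 and 3, against 4.69% and 3.7%, and at 48 h 3 and 7, against 14.6% and 16.8%. Apoe, the lipoprotein that carries cholesterol between cells, had a ratio of 0.60 at 24 h and 2.30 at 48 h. The receptor Lrp1, which takes up remnant lipoproteins, was at 1.37 and the sterol transporter Gramd1c at 1.55 at 48 h. Soat1, which esterifies cholesterol, was at 0.63 at both 6 h and 24 h. The lower genes at 48 h included Nceh1 (-1.70) and Lipa (-1.02), which release cholesterol from its esters. Erlin1 (-1.92) and Erlin2 (-0.72), which restrain SREBP in the endoplasmic reticulum, were also lower, as was the protease gene Mbtps2 (-0.59), whose product cuts SREBP. Cyp7b1, an oxysterol hydroxylase, was at -1.04 and Pdss1, which builds the ubiquinone side chain, at -1.43. The list's median was -0.19 at 48 h, against -0.01 over all genes.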

How the data were processed

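Total RNA of 3T3-L1 cells was hybridised to 12 Agilent 2-colour arrays, 1 for each condition. The deposited files hold scanner intensity values of both dyes, extracted by the authors with Agilent Feature Extraction (10.7.3.1 per the file headers, 10.5.1.1 per the processing notes), on an array design annotated against mm9. The authors also deposited log10 ratios per probe, which were used as an alternative. Median spot intensities were background-corrected with normexp (offset 50) and normalised by loess within each array in limma 3.58.1 under R 4.3.3, and for single channels also between arrays (Aquantile). Control spots and 58 spots of high local background were left out, and probes well above background on at least 3 arrays were kept. Of 39429 probes, 27508 were named and 23031 passed, giving 13836 genes, each represented by its brightest probe. The model had terms for time and treatment with 6 residual degrees of freedom, and p-values were adjusted over all genes by Benjamini-Hochberg. Simulated data were used to test the code. The genes described at length were those called in at least 1 co-culture comparison at 6, 24 or 48 h, and Sqle, Abcg1, Insig1 and Stard4 were added to them after their values were seen. The members and lists were chosen with earlier results of these data known. The alternatives that kept high local backgrounds, and that left out each array for the single channels, were chosen after seeing the data. The number of arrays limits the precision.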

Additional observations from a re-analysis of the deposited data

Results flagged for a closer look

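A sample far from the other 3 of its time was found in 8 of 93 groups of 4 arrays, tested for the 31 genes only. The cutoff would flag about 1 in 20 independent groups, but these groups share arrays, and the rate over all genes was not measured. Of the 8, 6 were on the NT array at 6 h. There the co-culture log2 ratio of Hmgcs1 was -0.95, against 0.15 to 0.33 on the other arrays, that of Fdps -0.52 (others -0.07 to -0.04), that of Lss -0.28 (others 0.14 to 0.20) and that of Ebp -0.67 (others -0.35 to -0.34). Outside the enzymes, Stard4 was at -0.53 (others 0.53 to 0.64) and Nr1h2 at -0.12 (others 0.28 to 0.31). The others were Fdft1 on NT at 48 h, -0.94 (others -0.78 to -0.75), and Srebf2 on C at 48 h, 0.19 (others -0.15 to -0.14).

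The co-culture ratio differed between times in a direct test for 11 genes. Abca1 differed by -0.64 at 24 h against 6 h, by -1.04 at 48 h against 24 h and by -1.68 at 48 h against 6 h. At 48 h against 24 h the enzymes that differed were Nsdhl (-1.08), Idi1 (-1.0), Cyp51 (-0.96), Msmo1 (-0.95) and Mvd (-0.62). At 48 h against 6 h they were Msmo1 (-1.53), Idi1 (-1.46), Cyp51 (-1.17), Nsdhl (-1.08), Mvd (-1.07), Fdft1 (-0.85), Hmgcs1 (-0.77) and Fdps (-0.61). Nr1h2 differed by 0.69 at 48 h against 24 h and by 0.73 at 48 h against 6 h, and Mylip by 0.64 at 48 h against 24 h, and these 3 differences changed sign under median centring. Slide and time cannot be told apart in any of these.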

How the results depend on the processing

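The 48 h count of genes called was 14 and moved past 1.5 times only when the fold threshold was removed (26). Without that threshold the count was 16 at 6 h (3 with it), 17 at 24 h (2), 3 at 24 h against 6 h (1), 18 at 48 h against 24 h (8) and 19 at 48 h against 6 h (10). Among all genes, 3291 were then higher and 3957 lower at 6 h, of 13830 tested. The same numbers were 3497 and 3428 of 13828 at 24 h and 4868 and 5222 of 13830 at 48 h. Median centring without loess gave 12 at 6 h, 7 at 24 h, 2 at 24 h against 6 h, 23 at 48 h against 24 h, 21 at 48 h against 6 h and 2 for C against NT (0). Over all genes it called 3487 higher and 231 lower at 6 h, and 4624 and 111 at 24 h. It made calls at 6 h and 24 h mostly higher (93.8% and 97.7% of all called genes, against 45.5% and 55.9%) and at 48 h mostly lower (30.4% higher, against 46.4%), and the deposited ratios gave 66.3% at 24 h. It reversed Hmgcs1 at 24 h (0.06), Mylip (-0.20) and Nr1h2 (-0.14) at 48 h against 24 h and Nr1h2 at 48 h against 6 h (-0.09), and the cause was not tested. Scaling between arrays gave 5 at 6 h and 5 at 48 h against 24 h. The mean of a gene's probes gave 1 at 6 h and 1 at 24 h and reversed Fdft1 at 48 h (0.28) and at 48 h against 6 h (0.17), a mean that takes in a probe above background on 0 of 12 arrays in cells alone. Processed signals and deposited ratios each gave 2 at 24 h against 6 h. Without the 3 arrays in doubt the count was 1 at 24 h, 0 at 24 h against 6 h and 0 for CS in co-cultured cells, and quantile normalisation gave 1 for C there (0). Synthesis minus efflux at 48 h was -1.29 in C and -0.22 in NT with deposited ratios, and -0.59 in S with median centring, which gave 0.12 for S at 6 h. Leaving out single arrays gave 3 to 4 at 6 h, 2 to 4 at 24 h, 13 to 16 at 48 h, 0 to 4 at 24 h against 6 h, 6 to 9 at 48 h against 24 h and 8 to 13 at 48 h against 6 h. In single channels it gave 13 to 16, 6 to 8 and 13 to 16 for co-cultured cells over the same 3 intervals, 5 to 10 and 5 to 9 for cells alone at 24 h and 48 h against 6 h, and 0 to 1 for C and for CS in co-cultured cells. The other filters, offset and design kept all 38 single-gene calls. No paired analysis was possible because each condition had 1 array and treatment was already a term. Mean spot signals were not run, since median signals were used, and a slide block was not run, since each slide held 1 time. Counts given here without a number for all genes cannot be set against the calls of their setting. Array number limits the precision of each value.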
